A study of Mus musculus with 14 samples.

Results

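How the effect of valproic acid (VPA) on gene expression in hepatic stellate cells (HSCs) differed between 64 h and 4 h of culture was read from the difference of 2 effects, (VPA64h minus Ctrl64h) minus (VPA4h minus Ctrl4h), on log2 expression values. The difference was taken for each of 19938 genes, which are the different symbols among the 35557 rows of the value table that carry exactly 1 gene symbol, and it used 12 of the 14 arrays of the series. A positive difference means that VPA raised the gene more, or lowered it less, at 64 h than at 4 h, and a negative difference means the opposite. HSCs had been isolated from livers of BalbC mice (Balb/cByJ in the study's methods) and grown in DMEM with 10% FBS. To the treated cultures 2.5 mM VPA was added 2 h after seeding, when loose cells were rinsed off. The study counts the 4 h and 64 h from this rinse. The groups were VPA64h, Ctrl64h, VPA4h and Ctrl4h, with 3 arrays each. Control cultures were grown in the same medium without VPA, and the study's methods describe the replicates of these groups as biologically independent. The 2 remaining arrays, control cultures at 16 h (Ctrl16h), did not enter the difference. They entered the estimate of the spread and the mean by which 1 probe set was chosen for each gene. Every group is bulk RNA from primary cells that were activating on plastic, which limits it as a model of the cells in the liver.

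In a healthy liver HSCs store vitamin A in lipid droplets and divide little. When they are put in culture, or when the liver is injured, they activate: they turn into contractile, matrix-producing myofibroblast-like cells and enter the cell cycle. VPA, an antiepileptic drug, inhibits histone deacetylases, the enzymes that remove acetyl groups from histones and other proteins, and such inhibitors both raise and lower the transcription of many genes. An effect present after 4 h acts on cells that have only begun to activate, while an effect at 64 h is measured against control cells that have gone much further.

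The values had been made by the authors with RMA, which brings all arrays to the same distribution, so a change is measured against the rest of the genes on an array. A gene was called when its adjusted p (limma, Benjamini-Hochberg over all 23410 tested probe sets) was under 0.05 and its change at least 2-fold, that is 1 on the log2 scale. Array medians ran between 6.34 and 6.41 on the 14 arrays. The number of arrays limits the precision, and the p-values measure the spread between these cultures. Markers of stellate cells averaged 9.48 to 9.62 on the VPA64h arrays, 9.64 to 9.76 in Ctrl64h, 10.18 to 10.30 in VPA4h and 10.02 to 10.10 in Ctrl4h (log2, mean of 14 genes). Of the markers of other liver cells, 0 of 20 for hepatocytes, 0 of 20 for Kupffer cells and macrophages, 0 of 20 for sinusoidal endothelium and 0 of 14 for lymphocytes were called for the difference, and 1 of 15 for cholangiocytes, mesothelium and portal fibroblasts, Thy1. Among all tested probe sets 0.893% were called as more positive and 1.70% as more negative, so 0 calls in lists of this size say little about these cells. At an unadjusted p under 0.05 (limma) and any size, the counts were 1 for hepatocytes, 0 for macrophages, 7 for endothelium and 2 for lymphocytes. The count was 5 of 14 for the stellate cell markers. Over all 19938 genes, 3272 had an adjusted p under 0.05 at any size, which is a stricter limit. The share of all genes at an unadjusted p under 0.05 is not given here. The marker counts can therefore not be called high or low. The endothelial marker Plvap, a protein of endothelial fenestrae, lay at the limit, with a difference of -0.99 (adjusted p = 0.0021), and was called in 8 of 26 alternatives, among them median centring, repeated quantile normalisation and leaving out repeat 1 of Ctrl4h, repeat 3 of VPA4h, repeat 1 or 3 of Ctrl64h or repeat 2 of VPA64h (values from -1.13 to -0.87 over all alternatives). Endothelial markers averaged 6.42 to 6.47 in VPA64h, 6.61 to 6.87 in Ctrl64h, 6.78 to 7.03 in VPA4h and 6.89 to 7.08 in Ctrl4h. Hepatocyte markers averaged 5.37 to 5.95 in VPA64h, 5.47 to 6.05 in Ctrl64h, 5.79 to 6.29 in VPA4h and 5.88 to 6.30 in Ctrl4h, and the part of these cells in the results below was not tested.

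The VPA effect differed between the times for 521 genes, of which 167 had a more positive and 354 a more negative effect at 64 h. Among all tested probe sets 0.893% were called as more positive and 1.70% as more negative. Without the limit on size, 1527 genes were more positive and 1745 more negative. Over all genes the difference had a median of 0.02 and an SD of 0.38. Called genes split into 32.1% more positive with the values as deposited, and into 47% (237 more positive, 267 more negative) when each array was centred on a list of housekeeping genes, so the balance of the directions depends on the scaling. Housekeeping centring moved every difference by the same 0.09, so it could not change the sign of larger differences. The limit of 2-fold fell between Mpp6 (1.0003, called) and Mapk14 (-0.9982, not called).

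**Figure D1:**
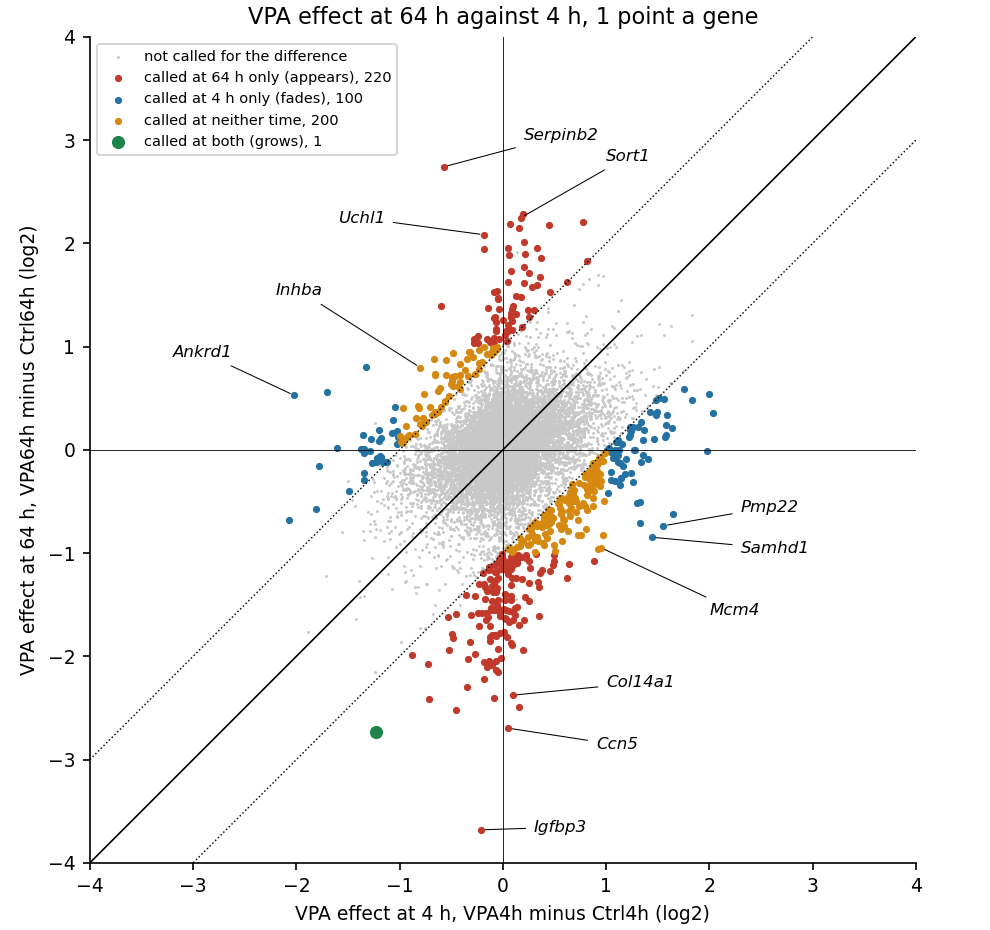
VPA effect at 64 h (vertical, log2) against the VPA effect at 4 h (horizontal, log2), 1 point for each of 19938 genes. The solid line marks equal effects and the dotted lines a difference of 1; the 220 genes in red lie along the vertical axis, the 100 in blue along the horizontal one, and the 200 in orange where the effects had opposite signs.

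Each called gene was put into a pattern by whether its effect was also called at 64 h, at 4 h, at both or at neither. An effect that was not called at a time could still have an adjusted p under 0.05 there, at less than 2-fold. The effect appeared, being called at 64 h only, for 220 genes, 68 more positive and 152 more negative. It faded, being called at 4 h only, for 100 genes, 34 more positive and 66 more negative. The effect grew, being called at both times, for 1 gene, and 0 genes weakened or flipped, a flip being a call at both times with opposite signs. The other 200 genes, 65 more positive and 135 more negative, were called at neither time: the effects had opposite signs at 64 h and 4 h in all 200, which the limits themselves largely fix. For the effect at 64 h 1.00% of the tested probe sets were higher and 1.14% lower with VPA, and for the effect at 4 h 0.867% were higher and 0.555% lower.

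The difference of effects is also the change under VPA between 4 h and 64 h minus the change in control culture, which shows which cultures moved. In control culture 6.68% of probe sets were higher and 3.71% lower at 64 h than at 4 h, and under VPA 5.26% were higher and 2.29% lower. Of the 152 genes with a lower level that appeared at 64 h, 104 changed in control culture only and 13 under VPA only. Their median change was 0.18 under VPA and 1.69 in control culture (log2). Of the 68 genes with a higher level that appeared, 41 changed under VPA only and 13 in control culture only, with median changes of 1.16 under VPA and -0.16 in control culture. These contrasts share arrays with the difference, so the counts describe it and are not independent of it.

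**Figure D2:**
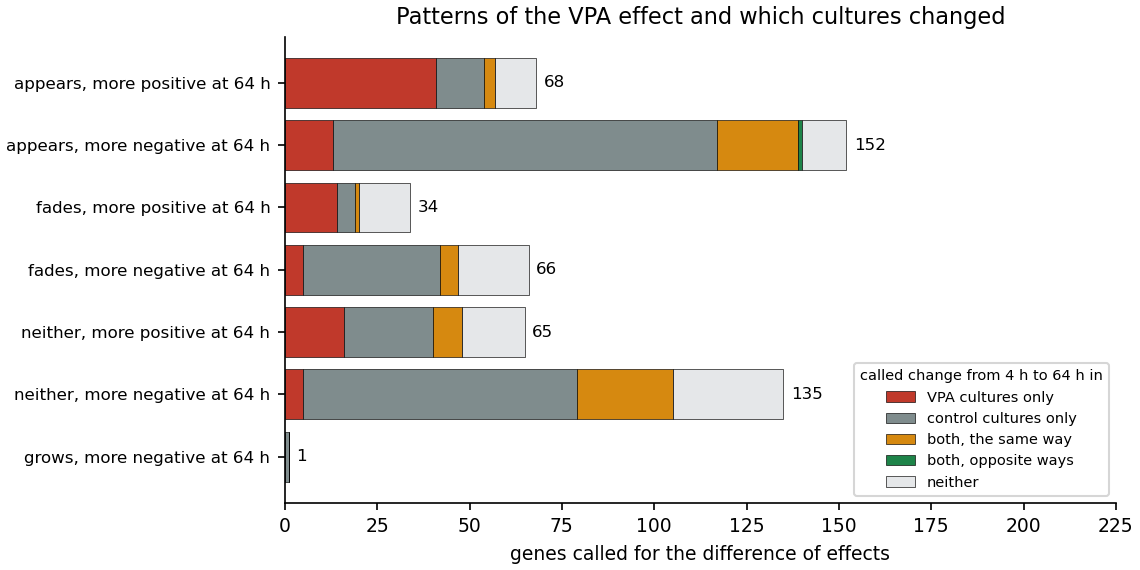
Number of genes called for the difference of effects (horizontal) by pattern and direction, with colours for the cultures whose level changed between 4 h and 64 h. Genes whose negative effect appeared mostly changed in control cultures only (104 of 152), and genes whose positive effect appeared mostly under VPA only (41 of 68).

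The largest difference of all called genes was that of Igfbp3, which encodes a binding protein that carries insulin-like growth factors. Its log2 levels were 7.15, 7.77 and 6.95 in VPA64h, 10.78, 11.46 and 10.67 in Ctrl64h, 8.97, 8.87 and 8.57 in VPA4h, and 9.28, 8.96 and 8.81 in Ctrl4h. At 64 h every VPA culture was far below every control, while at 4 h the groups overlapped. The effect was -3.68 at 64 h, 12.8-fold lower, and -0.21 at 4 h (adjusted p = 0.602), with a difference of -3.47 (SE 0.30, adjusted p = 2.69e-06). The study picked Igfbp3 from these arrays, so its rank here is not independent of that choice. By qPCR on biological repeats the study found the same profile. It also reports that VPA reduced the rise of Igfbp3 in HSCs from mice given carbon tetrachloride. Igfbp3 was the only gene of the 220 whose level changed by at least 2-fold in opposite ways, by -1.52 under VPA and 1.95 in control culture. Of 15 measured members of the insulin-like growth factor axis 2 were called, both negative, against 1.70% of all tested probe sets. The list had a median difference of -0.03 against 0.02 for all genes (0.06 after housekeeping centring). The second was Igfbp4, another binding protein of the family, with a difference of -1.04 (SE 0.22, adjusted p = 0.00429) that lost its call in 7 of 26 alternatives, among them leaving out repeat 1 of Ctrl4h, repeat 2 or 3 of VPA4h, repeat 3 of Ctrl64h or repeat 1 of VPA64h (values from -1.27 to -0.90 over all alternatives). Igf2r, the receptor that clears IGF2, had effects of 1.59 at 64 h and 0.92 at 4 h, and its difference of 0.67 (adjusted p = 0.0416) was under the limit.

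The promoter of Igfbp3 is shown because it stands at the head of the genes whose effect appeared, and those of Samhd1 and Mcm6 because their VPA effects had opposite signs at the 2 times. Each is the RefSeq window of 300 bases around the gene's start on mouse build GRCm38.p6, read along the gene's strand, with capitals for matches to the motifs searched. The matches found were all to GGGCGG, the GC box to which Sp1 binds, on either strand. The Igfbp3 window (chr11:7213874-7214173, minus strand) holds 0 matches and 37 CpG dinucleotides, that of Samhd1 (chr2:157135047-157135346, minus strand) 1 match and 29 CpG, and that of Mcm6 (chr1:128359656-128359955, minus strand) 2 matches and 21 CpG.
Igfbp3: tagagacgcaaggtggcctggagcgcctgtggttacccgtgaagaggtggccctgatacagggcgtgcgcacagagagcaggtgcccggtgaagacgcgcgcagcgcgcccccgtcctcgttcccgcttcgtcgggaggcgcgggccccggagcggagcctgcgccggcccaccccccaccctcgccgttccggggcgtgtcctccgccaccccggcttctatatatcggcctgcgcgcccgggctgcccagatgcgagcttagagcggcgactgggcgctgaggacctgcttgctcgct
Samhd1: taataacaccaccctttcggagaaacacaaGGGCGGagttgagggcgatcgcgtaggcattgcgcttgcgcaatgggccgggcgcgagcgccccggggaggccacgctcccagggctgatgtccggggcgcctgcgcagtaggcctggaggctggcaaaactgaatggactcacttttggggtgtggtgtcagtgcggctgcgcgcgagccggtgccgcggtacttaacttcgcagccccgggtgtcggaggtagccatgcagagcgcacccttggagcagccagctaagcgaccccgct
Mcm6: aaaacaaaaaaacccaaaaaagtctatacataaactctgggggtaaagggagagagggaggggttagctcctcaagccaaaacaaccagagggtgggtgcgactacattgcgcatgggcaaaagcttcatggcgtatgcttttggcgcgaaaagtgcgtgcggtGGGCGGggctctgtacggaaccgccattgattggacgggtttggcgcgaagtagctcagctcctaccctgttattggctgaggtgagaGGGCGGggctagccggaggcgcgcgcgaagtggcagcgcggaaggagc

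Across patterns, the GC box was found in 50% of the promoters where a negative effect appeared (108 of 152 genes with a window), against 49.9% of all promoters (15563 genes with a window). Its share was 70% where a positive effect at 4 h faded (50 of 66 genes with a window) and 70.5% among the more negative genes called at neither time (105 of 135 with a window). The TATA motif TATAAA was in 14.8% of the promoters where a negative effect appeared, 2% where a positive effect at 4 h faded and 2.86% of the more negative genes called at neither time, against 12.1% of all promoters. It was in 20% of the promoters of the more positive genes called at neither time (50 with a window). TGACGTCA, to which CREB binds, was in 5.88% of the promoters where a positive effect appeared (51 with a window), 7.14% where a negative effect at 4 h faded (28 with a window) and 1.85% where a negative effect appeared, against 2.48% of all. TGACTCA, to which AP-1 binds, was in 9.8%, 0% and 4.63% of these 3 sets, against 4.5% of all, and CACGTG, the E-box, in 9.8%, 17.9% and 7.41%, against 8.42% of all. Sets of this size hold few matches, and none of these shares was tested. All motifs were searched on both strands, and a match describes the letters of the window only.

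Genes of the contractile apparatus and of the matrix stood among the negative genes whose effect appeared. Ccn5, a matricellular protein of the CCN family, had log2 levels of 7.24, 7.71 and 7.01 in VPA64h and 10.25, 9.93 and 9.86 in Ctrl64h, and 7.15, 7.33 and 7.08 in VPA4h against 7.01, 7.25 and 7.15 in Ctrl4h. Only the 64 h controls had left the level of 4 h. The effect was -2.70 at 64 h and 0.05 at 4 h, with a difference of -2.75 (SE 0.21, adjusted p = 1.34e-06). Actg2, the enteric smooth muscle actin, had 6.47, 6.78 and 6.93 in VPA64h, 9.24, 9.04 and 9.09 in Ctrl64h, 6.29, 6.43 and 7.01 in VPA4h, and 6.54, 6.56 and 6.89 in Ctrl4h. It showed the same picture, with high levels in the 64 h controls only and a difference of -2.31 (SE 0.23, adjusted p = 7.97e-06). Aard, for which no role is given here, followed with a difference of -2.65 (SE 0.22, adjusted p = 2.56e-06).

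The list of smooth muscle genes had a median difference of -0.30. Of its 16 measured members 4 were called, all more negative, against 1.70% of all tested probe sets. Besides Actg2 these were Myh11, smooth muscle myosin heavy chain, at -2.04, Mylk, the kinase of myosin light chain, at -1.29, and Des, the intermediate filament desmin, at -1.17. Myh11 and Actg2 appeared, whereas Mylk and Des were called at neither time. Des had 9.72, 9.91 and 9.91 in VPA64h, 10.57, 10.53 and 10.54 in Ctrl64h, 8.95, 9.11 and 9.12 in VPA4h, and 8.62, 8.60 and 8.56 in Ctrl4h. VPA cultures thus lay below all controls at 64 h and above all controls at 4 h. Acta2, which encodes alpha smooth muscle actin, was below all controls at both times, with effects of -1.17 at 64 h and -0.89 at 4 h, and its difference was -0.28 (adjusted p = 0.369, 95% interval -0.66 to 0.11).

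Among the collagens 2 of 18 were called, both more negative, against 1.70% of all tested probe sets. The list median was -0.18, with 11 differences below 0. Col12a1 went the other way, with effects of -0.19 at 64 h and -1.12 at 4 h. Its difference of 0.92 (SE 0.26, adjusted p = 0.0221, limma) was under the limit. It was called in 7 of 26 alternatives, among them housekeeping centring and repeated quantile normalisation. Col14a1, a collagen that sits on the surface of fibrils, had 9.64, 10.01 and 9.57 in VPA64h, 12.02, 12.25 and 12.07 in Ctrl64h, 12.24, 12.20 and 12.20 in VPA4h, and 12.28, 12.05 and 12.02 in Ctrl4h. Here the controls at 4 h and 64 h were alike, but the 2 control arrays at 16 h were lower, at 10.80 and 10.42. VPA cultures, which have no arrays at 16 h, were lower by 2.48 at 64 h than at 4 h. The difference of Col14a1 was -2.47 (SE 0.17, adjusted p = 6.57e-07). Col3a1, a fibrillar collagen, had effects of -2.06 at 64 h and -0.18 at 4 h, with a difference of -1.88 (SE 0.27, adjusted p = 0.000213), and in this case the control cultures changed and the VPA cultures did not pass the test (-0.37). For Col1a1, the main fibrillar collagen, the difference was -0.80 (SE 0.25, adjusted p = 0.0386), below the limit, and reached -1.02 when repeat 1 of Ctrl4h was left out. Lox, the cross-linking enzyme lysyl oxidase, had effects of -1.73 at 64 h and -0.76 at 4 h. Its difference of -0.97 (SE 0.29, adjusted p = 0.0287) was just under 2-fold and was called in 7 of 26 alternatives, among them leaving out repeat 1 or 3 of Ctrl4h, repeat 2 of VPA4h, repeat 2 of Ctrl64h or repeat 3 of VPA64h (values from -1.15 to -0.67 over all alternatives). Of 14 collagen-processing genes 1 was called, Loxl3, a relative of Lox, with -0.56 at 64 h and 0.56 at 4 h.

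Other matrix and surface genes were called in the same direction. Emilin1, an elastic fibre glycoprotein, had a difference of -1.72, Prelp, a leucine-rich proteoglycan, of -1.23, and Adamts5, a proteoglycan-cleaving protease, of -1.46. Itga8, an integrin chain of mesenchymal cells, had -1.65 and Vegfd, a growth factor for lymphatic vessels, -1.98. Tmem204, a membrane protein, and Cyp7b1, an oxysterol hydroxylase, both of which the study names, were called in this direction too. The study states that its qPCR did not show the array result for either gene. It proposes differences between the methods, such as the normalisation, as a possible reason. The values given here are from the arrays only. Tmem204 had a difference of -1.95 (SE 0.18, adjusted p = 5.13e-06), and Cyp7b1 one of -1.70 (SE 0.31, adjusted p = 0.0012). For both the change was called under VPA only, at -1.80 and -1.46. Cyp7b1 had effects of -2.42 at 64 h and -0.72 at 4 h (adjusted p = 0.0244, limma), the latter under the 2-fold limit. Its Ctrl4h arrays spread widely (7.93, 7.46 and 6.70) and overlapped those of VPA4h. Dhrs3, which reduces retinal to retinol, had effects of -2.11 at 64 h and -0.15 at 4 h, and was the 1 gene called of 24 on the retinoid and lipid droplet list.

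**Figure D3:**
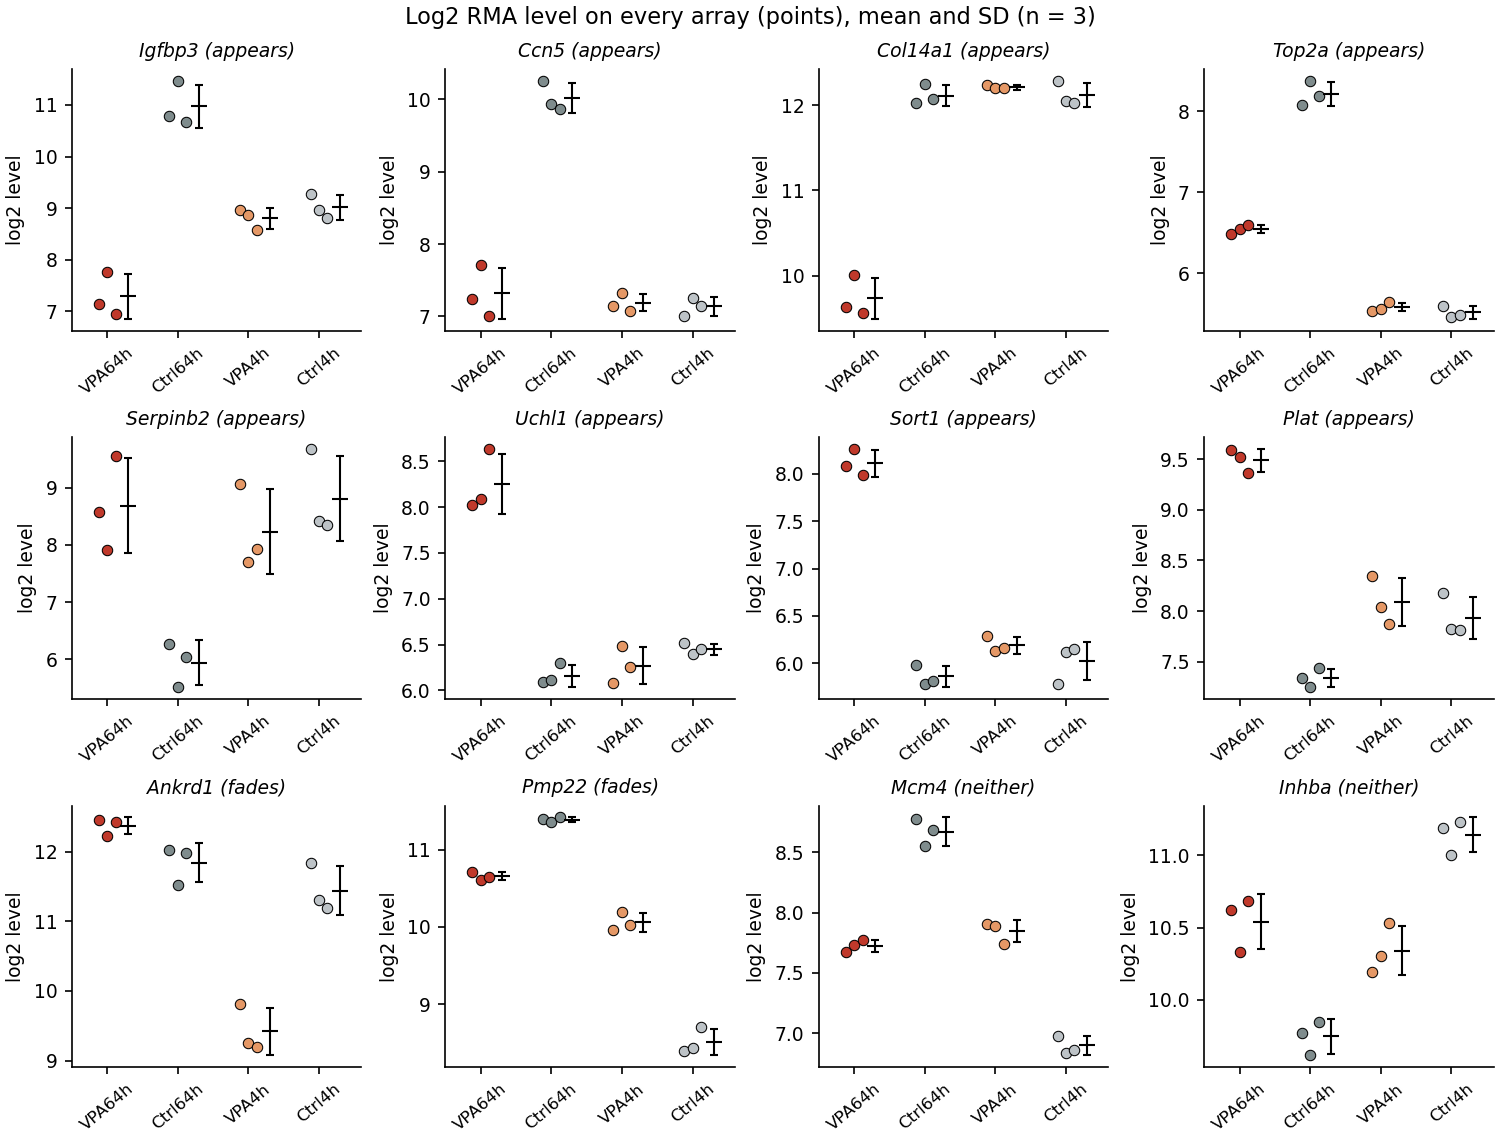
Log2 RMA level (vertical) of 12 genes on every array of VPA64h, Ctrl64h, VPA4h and Ctrl4h (points), with the mean and SD of 3 arrays beside them. The Igfbp3 arrays of VPA64h lie at 6.95 to 7.77, below the 8.57 to 9.28 of the 4 h arrays, while Ccn5 in VPA64h (7.01 to 7.71) is near its 4 h levels.

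Cell cycle genes had the highest shares of called members among the 36 gene lists. Of 20 measured genes of G1/S and DNA replication 11 were called, all more negative, with a median difference of -1.13 against 0.02 for all genes, and of 23 genes of G2 and mitosis 13 were called, all more negative, with a median of -1.06. All 20 and all 23 differences were below 0. In bulk RNA, fewer cycling cells and less RNA per cycling cell cannot be told apart. The median effect at 64 h was -0.72 for G1/S and -0.99 for mitosis, and at 4 h it was 0.15 for G1/S and -0.04 for mitosis. Of the markers of other liver cells 1 was called, Thy1, and 7 of the 20 endothelial markers had an unadjusted p under 0.05 (limma). No share of all genes at that limit is given to set beside the 7.

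Among genes of mitosis, 11 of 23 were called as lower at 64 h. Ccna2, cyclin A2, had 5.83, 6.06 and 6.06 in VPA64h, 7.88, 7.92 and 8.29 in Ctrl64h, 5.75, 5.55 and 5.72 in VPA4h, and 5.95, 5.73 and 5.76 in Ctrl4h. The 64 h controls stood alone above the other 3 groups. Top2a, the topoisomerase that untangles chromosomes, had 6.49, 6.55 and 6.59 in VPA64h and 8.08, 8.37 and 8.19 in Ctrl64h, against 5.54, 5.56 and 5.64 in VPA4h and 5.60, 5.46 and 5.49 in Ctrl4h. Here VPA64h lay between the 4 h level and the 64 h controls. The differences were -1.91 (SE 0.16, adjusted p = 2.56e-06) for Ccna2, -1.73 (SE 0.12, adjusted p = 6.57e-07) for Top2a and -1.69 (SE 0.15, adjusted p = 3.26e-06) for Bub1, a kinase of the spindle checkpoint. With the mean of its probe sets in place of the brightest, Top2a had -1.11 (adjusted p = 1.14e-05).

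The subunits of the replicative helicase, Mcm2 to Mcm7, were all measured. Mcm2, Mcm4, Mcm6 and Mcm7 had effects of opposite sign with an adjusted p under 0.05 at each time, whereas Mcm3 and Mcm5 did not, with effects at 4 h of 0.17 (adjusted p = 0.2) and 0.21 (adjusted p = 0.17). Mcm2, Mcm3, Mcm5 and Mcm7 are given to complete the complex. Mcm4, had 7.67, 7.73 and 7.77 in VPA64h, 8.78, 8.55 and 8.69 in Ctrl64h, 7.91, 7.89 and 7.74 in VPA4h, and 6.98, 6.84 and 6.86 in Ctrl4h. VPA cultures held nearly the same level at both times, above the controls at 4 h and below them at 64 h. The effects were -0.95 at 64 h and 0.95 at 4 h, with a difference of -1.90 (SE 0.12, adjusted p = 3.09e-07). Mcm6 had 7.79, 7.79 and 7.79 in VPA64h, 8.87, 8.64 and 8.76 in Ctrl64h, 7.46, 7.42 and 7.28 in VPA4h, and 6.49, 6.53 and 6.38 in Ctrl4h, with a difference of -1.89 (SE 0.12, adjusted p = 3.09e-07). Again the groups did not overlap at either time. Ccne2, cyclin E2, of the same list had an effect of -1.89 at 64 h and 0.09 at 4 h.

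The GC box was in 81.2% of the G1/S promoters (16 with a window) and 83.3% of the mitosis promoters (18 with a window), against 49.9% of all. The motif GGCGGGAA, a form of the site of E2F factors that was added after the data were seen and can overlap the GC box, was in 18.8% of the G1/S promoters and 3.14% of all, and in 0% of the mitosis promoters.

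**Figure D4:**
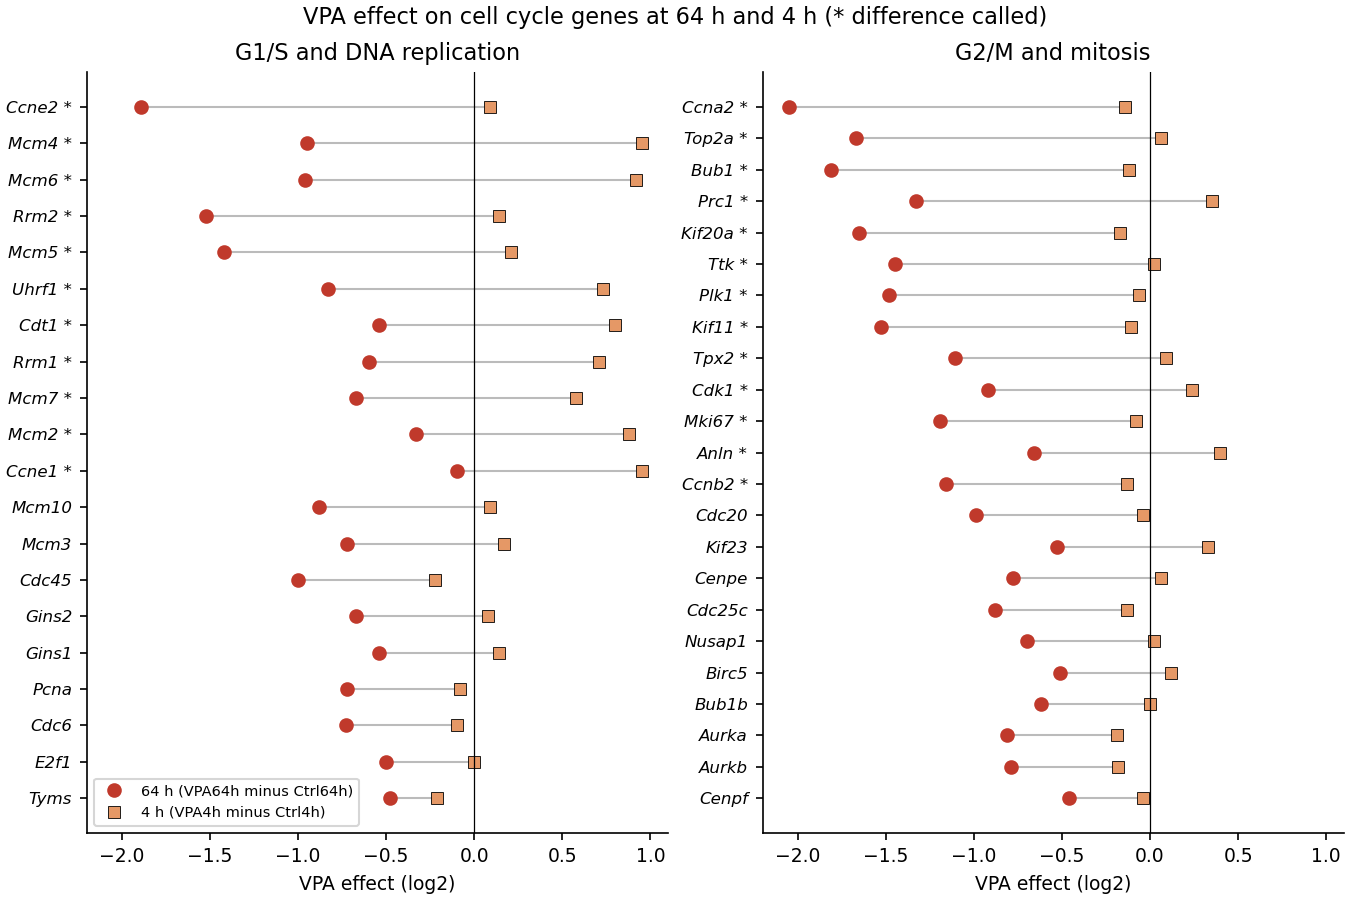
VPA effect (horizontal, log2) at 64 h (circles) and at 4 h (squares) for 20 genes of G1/S and DNA replication and 23 genes of G2 and mitosis, ordered by their difference, with asterisks for called differences. The circle lies left of the square for every gene, and Mcm4, with -0.95 at 64 h and 0.95 at 4 h, lies on both sides of 0.

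The positive genes whose effect appeared were led by Serpinb2, plasminogen activator inhibitor 2. It had 8.58, 7.91 and 9.55 in VPA64h, 6.27, 5.52 and 6.04 in Ctrl64h, 9.07, 7.70 and 7.93 in VPA4h, and 9.67, 8.41 and 8.34 in Ctrl4h. Replicates spread widely, yet the 64 h controls were below every other array. The difference was 3.31 (SE 0.59, adjusted p = 0.000992, 95% interval 2.07 to 4.56). Plat, tissue plasminogen activator, and Serpini1, neuroserpin, which inhibits it, appeared as well. Plat had 9.59, 9.52 and 9.37 in VPA64h, 7.34, 7.25 and 7.44 in Ctrl64h, 8.35, 8.04 and 7.87 in VPA4h, and 8.18, 7.82 and 7.81 in Ctrl4h, so that VPA cultures were above and control cultures below the level of 4 h. Differences were 2.00 (SE 0.18, adjusted p = 4.3e-06) for Plat and 2.09 (SE 0.17, adjusted p = 1.93e-06) for Serpini1.

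Genes best known from neurons and endocrine granules made up a further part. Of 30 measured genes on this list 5 were called, all more positive, although the list median was 0.13, and 6 were called as higher at 64 h. The shares of all tested probe sets were 0.893% more positive for the difference and 1.00% higher at 64 h. The study chose several of these genes on these samples, so their direction is not independent evidence. It reports that qPCR on biological repeats showed Uchl1, Aplp1 and Ptprn, as well as Plat, raised after 64 h of VPA. In HSCs from mice given carbon tetrachloride, by its account, the dependence of these genes on VPA did not match the cultures. Uchl1, a deubiquitinating enzyme abundant in neurons, had 8.02, 8.09 and 8.63 in VPA64h, 6.09, 6.11 and 6.30 in Ctrl64h, 6.08, 6.48 and 6.26 in VPA4h, and 6.52, 6.40 and 6.45 in Ctrl4h. The VPA64h cultures stood apart from the other 3 groups, which lay close together. Its difference was 2.26 (SE 0.19, adjusted p = 2.63e-06). Ptprn, a membrane protein of secretory granules, had 7.72, 8.05 and 8.29 in VPA64h and 6.25, 5.83 and 6.14 in Ctrl64h, against 6.41, 6.15 and 6.06 in VPA4h and 6.46, 6.37 and 6.33 in Ctrl4h, with a difference of 2.12 (SE 0.19, adjusted p = 3.93e-06). Aplp1, a relative of the amyloid precursor, followed with 1.90, and Syn1 and Map2, a synaptic vesicle protein and a dendritic tubulin-binding protein that complete the 5, with 1.51 and 1.36. For Map2 the control cultures fell by 1.32 and the VPA cultures changed by 0.04.

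Sort1, the sorting receptor sortilin, had 8.08, 8.26 and 7.99 in VPA64h, 5.98, 5.78 and 5.81 in Ctrl64h, 6.29, 6.13 and 6.16 in VPA4h, and 5.78, 6.12 and 6.15 in Ctrl4h. Only VPA64h was raised, with a difference of 2.07 (SE 0.15, adjusted p = 9.59e-07). Tubb2b, a beta-tubulin with close relatives in the genome, had a difference of 2.11 (SE 0.18, adjusted p = 2.63e-06) and Thy1, a surface glycoprotein of fibroblasts and neurons, of 1.40 (SE 0.14, adjusted p = 9.73e-06). Of 17 genes of quiescent HSCs 2 were called, both more positive, against 0.893% of all tested probe sets. The list median was only 0.06, however, and 8 differences were below 0. Bambi had the lowest, -0.79 (adjusted p = 0.0158), which was under the limit. Ntm, the adhesion molecule neurotrimin, had effects of 1.53 at 64 h and -0.08 at 4 h (difference 1.61, SE 0.19, adjusted p = 2.9e-05), and Hhip, an antagonist of Hedgehog ligands, of 1.60 and 0.33. In control culture Ntm changed by -2.52 and Hhip by -1.72. Under VPA Ntm changed by -0.91 (adjusted p = 2.83e-05, under the 2-fold limit) and Hhip by -0.45 (adjusted p = 0.0506). Plxnc1, a semaphorin receptor, had effects of 0.80 at 64 h and 0.58 at 4 h, and its difference of 0.22 (adjusted p = 0.431, 95% interval -0.12 to 0.55) was not called.

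Fading effects were of both signs. Ankrd1, an ankyrin repeat protein induced by the mechanosensitive factor YAP, had 12.46, 12.23 and 12.42 in VPA64h, 12.02, 11.52 and 11.98 in Ctrl64h, 9.81, 9.25 and 9.20 in VPA4h, and 11.84, 11.30 and 11.19 in Ctrl4h. At 4 h VPA cultures were far below all controls, and at 64 h somewhat above them. The effects were 0.53 at 64 h and -2.02 at 4 h, with a difference of 2.55 (SE 0.26, adjusted p = 8.56e-06). Npr3, the clearance receptor of natriuretic peptides, and Ampd3, an AMP deaminase, had differences of 2.26 (SE 0.36, adjusted p = 0.000467) and 2.12 (SE 0.24, adjusted p = 2.17e-05), with early effects of -1.70 and -1.33. Of the 34 genes in which an early decrease faded, 14 changed under VPA only and 5 in control culture only.

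Early increases that faded were led by Pmp22, a membrane protein of myelin. It had 10.71, 10.61 and 10.65 in VPA64h, 11.40, 11.36 and 11.42 in Ctrl64h, 9.96, 10.19 and 10.02 in VPA4h, and 8.39, 8.43 and 8.70 in Ctrl4h. VPA cultures exceeded all controls at 4 h and fell short of all controls at 64 h, with a difference of -2.29 (SE 0.14, adjusted p = 3.09e-07). Samhd1, an enzyme that breaks down deoxynucleotides, had 9.20, 9.19 and 8.97 in VPA64h, 9.98, 10.03 and 9.89 in Ctrl64h, 8.82, 8.72 and 8.57 in VPA4h, and 7.44, 7.21 and 7.13 in Ctrl4h. Its groups were ordered like those of Pmp22, and its difference was the same to 2 decimals, -2.29 (SE 0.14, adjusted p = 3.09e-07). Chaf1b, a subunit of the factor that assembles nucleosomes on new DNA, had effects of -0.62 at 64 h and 1.65 at 4 h (difference -2.27, SE 0.24, adjusted p = 1.51e-05). For 37 of the 66 genes of this kind the control cultures alone changed, and the median change was -0.10 under VPA and 1.14 in control culture. Of 12 histone genes 2 were called, both more negative, H1f2, a linker histone, with -1.68 (effects 0.36 at 64 h and 2.04 at 4 h), and H2bc4, a core histone, with -1.21 and an effect of 0.13 at 4 h. Histone genes have near-identical copies, so their probe sets may also read relatives.

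Some genes had effects of opposite sign with an adjusted p under 0.05 at each time, whatever their size, a grouping made after the values were seen. This held for 104 of the 354 more negative genes (29.4%) and 35 of the 167 more positive ones (21%). Of these, 88 and 31 were called at neither time, where the limits themselves largely fix opposite signs. Choosing genes for a large difference favours opposite signs, so these shares only describe the called genes. In the 104, the median effect was -0.62 at 64 h and 0.64 at 4 h, and the median change was 0.21 under VPA and 1.52 in control culture. In the 35, the corresponding effects were 0.60 and -0.61 and the changes 0.40 and -0.83. Both effects were at least 1.5-fold for 20 of the 104 and 7 of the 35. Inhba, which encodes the subunit of activin A, averaged 10.54 ± 0.19 in VPA64h, 9.75 ± 0.12 in Ctrl64h, 10.34 ± 0.17 in VPA4h and 11.14 ± 0.12 in Ctrl4h (log2, SD, n = 3 each), and its groups did not overlap at either time. Control cultures started above and ended below the VPA cultures, whose levels stayed between them (difference 1.60, SE 0.16, adjusted p = 7.97e-06). Ddah1, which breaks down asymmetric dimethylarginine, had effects of 0.88 at 64 h and -0.67 at 4 h. Tbx20, a T-box transcription factor, had -0.83 at 64 h and 0.76 at 4 h (difference -1.59, SE 0.12, adjusted p = 9.36e-07). It was the 1 gene called of 12 lineage factors of HSCs, a list with a median difference of -0.69 and 11 of 12 differences below 0.

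Signalling genes were called in small numbers and in both directions. The shares of all tested probe sets were 0.893% more positive and 1.70% more negative. On the list of Wnt, Notch and Hedgehog genes 4 of 33 were more negative and 1 more positive. The 3 Wnt receptors among them were Fzd8, with effects of -1.11 at 64 h and 0.64 at 4 h, Fzd4, with -0.22 and 1.24, and Fzd7, with -0.41 and 0.68. Hey2, a Notch target that completes the 4, had 0.14 at 64 h and 1.23 at 4 h, and the positive one was Hhip. Of 31 genes of the TGF-beta and BMP pathway 3 were more positive and 2 more negative. Bmp2 and Bmp6, both ligands, had differences of 1.43 and 1.28, whereas the ligand Bmp4 had -1.04 and Id3, a target of BMP signalling, -1.44. The fifth was Inhba. Of 18 YAP target and CCN genes, Ankrd1 was more positive, and Ccn5 and Ajuba, a scaffold protein of cell junctions, more negative. Fzd7, Hey2, Bmp4 and Bmp6, like Syn1, Map2, Asns, Hmox1 and Sc5d, fall outside the naming rule and are given to complete the called members of their lists.

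Of 22 genes of protein, heat and amino acid stress 5 were called, all more positive, with a list median of 0.18. For this list and those that follow, the shares of all tested probe sets were 0.893% more positive and 1.70% more negative. Trib3 and Asns, both induced on amino acid shortage, were below the controls at both times: Trib3 had effects of -0.39 at 64 h and -1.49 at 4 h, and Asns of -0.29 and -1.34. The call of Trib3 was lost without repeat 1 of VPA4h (1.00). Hspa1a, a heat shock protein with the near-identical copy Hspa1b, had 1.26 at 64 h and 0.00 at 4 h. Ddit4, an inhibitor of mTOR signalling, had 0.42 and -0.83, and Hmox1, heme oxygenase, 0.85 and -0.21. On the glutathione and NRF2 list 3 of 17 were called, all more positive, with a median of 0.53. Nqo1, a quinone reductase, had 0.42 at 64 h and -1.04 at 4 h, Gsta4, a glutathione transferase, 2.21 and 0.77, and Mt2, a metallothionein with close relatives, 0.84 and -0.23. The call of Mt2 was lost without repeat 1 of VPA4h, repeat 1 of Ctrl64h or repeat 3 of VPA64h (values down to 0.83). For cholesterol synthesis and uptake 4 of 18 were called, all more negative, with a median of -0.39. Under housekeeping centring 2 of the 4 calls were left. Fdps, which makes farnesyl diphosphate, had -0.30 at 64 h and 1.09 at 4 h, and Idi1, Ebp and Sc5d, further enzymes of the pathway, -0.49 and 0.70, -0.85 and 0.17, and -0.08 and 0.93. Ebp lost its call without repeat 2 of Ctrl4h, repeat 1 of Ctrl64h or repeat 3 of VPA64h (values up to -0.91). The median effect of this list was -0.13 at 64 h and 0.38 at 4 h.

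**Figure D5:**
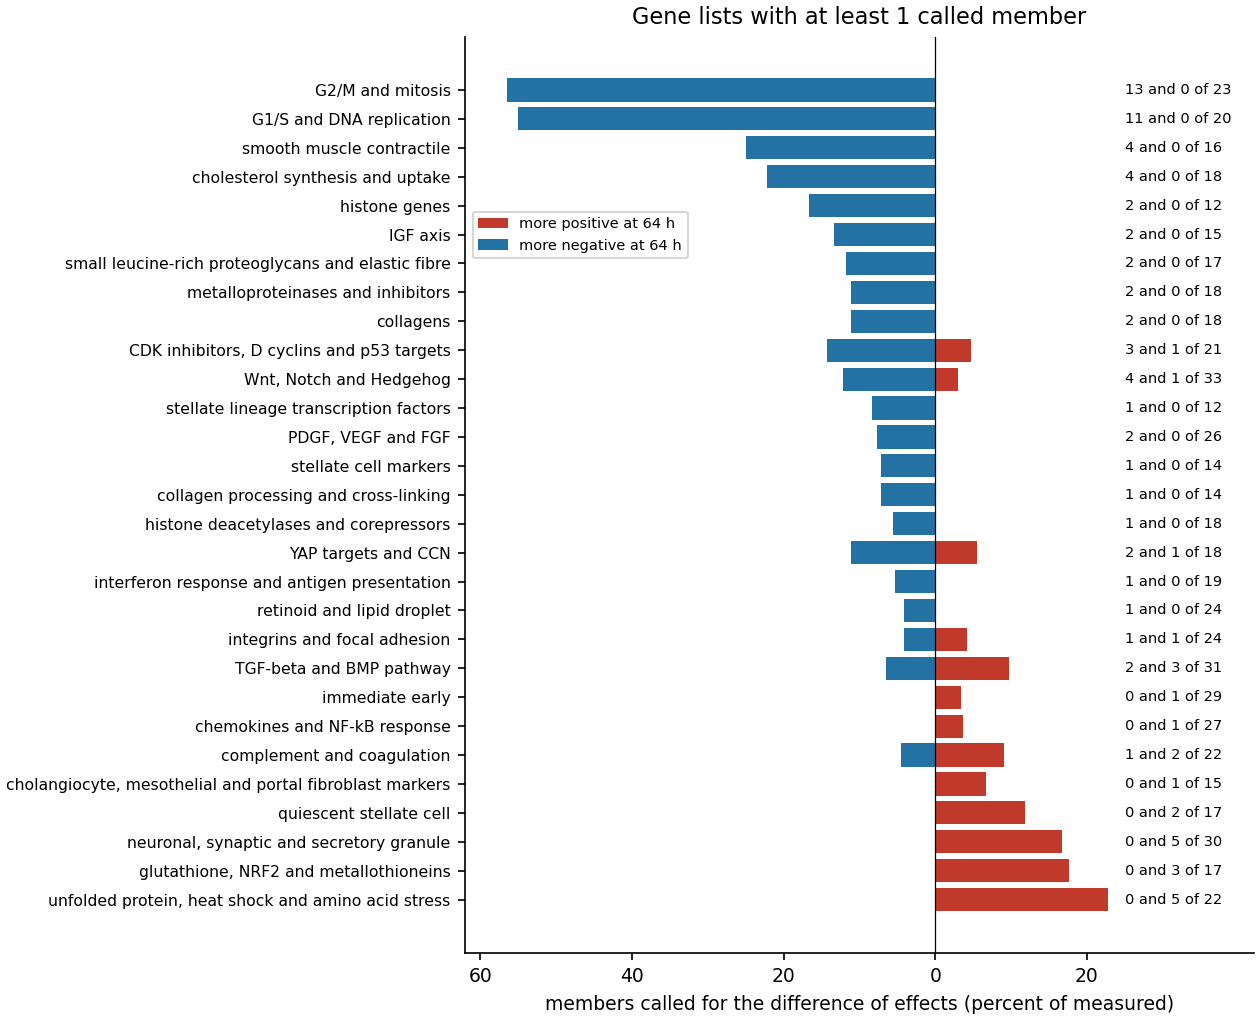
Share of the measured members of each gene list that were called for the difference of effects (horizontal, percent), more negative to the left and more positive to the right, for lists with at least 1 called member. Beside the bars stand the more negative and the more positive members of all measured; the cell cycle lists, with 13 of 23 and 11 of 20, reach furthest.

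Effects that were called at both times gave the contrast to these patterns. There were 25 genes called in the same direction, 13 higher and 12 lower with VPA, and 1 of them was called for the difference. For 20 of the 25 the 95% interval of the difference lay within -1 and 1. The gene that grew was 4930426L09Rik, with 5.95, 5.71 and 5.77 in VPA64h, 8.74, 8.36 and 8.54 in Ctrl64h, 5.85, 5.81 and 6.36 in VPA4h, and 7.37, 7.14 and 7.22 in Ctrl4h. VPA cultures were below all controls at each time, by -2.74 at 64 h and -1.23 at 4 h. Mapt, the microtubule protein tau, had 7.77, 7.98 and 7.80 in VPA64h, 6.66, 6.79 and 6.57 in Ctrl64h, 7.84, 7.88 and 7.76 in VPA4h, and 6.81, 6.63 and 6.79 in Ctrl4h. Its effects were 1.18 at 64 h and 1.08 at 4 h (interval of the difference -0.17 to 0.37). Il6, a cytokine, had effects of -1.76 at 64 h and -1.89 at 4 h, with a wider interval (-0.80 to 1.05). 4930426L09Rik, Mapt and Il6 were chosen after their values were seen. No gene was called with opposite signs at the 2 times. With a limit of 1.5-fold in place of 2-fold there were 27 such genes.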

How the data were processed

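Total RNA of 14 HSC cultures had been hybridised to Affymetrix Mouse Gene 1.0 ST arrays, 1 per culture. The deposited values are log2 expression values that the authors made with RMA (background correction, quantile normalisation and summarisation of probes). The submitters' processing notes name Affymetrix Expression Console and the study's methods GeneSpring GX; the genome build is not given in the sources used here. Symbols came from the platform annotation in GEO. The values were used as they are. Of 35557 rows, 23410 carry at least 1 gene symbol and were tested, 21789 carry exactly 1, and for each of their 19938 symbols the probe set with the highest mean was used. Groups were fitted in 1 model of 5 groups and 14 arrays with limma 3.58.1 (lmFit and eBayes, R 4.3.3), with 9 residual and 6.52 prior degrees of freedom. All tests are two-sided, with Benjamini-Hochberg adjustment over the 23410 probe sets. On simulated data with the spread of these arrays, the fit recovered 84% of 50 differences of 2-fold and 34% of 50 of 1.5-fold.

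The patterns, the 36 gene lists and the genes named were chosen with earlier results of these data known. Named were, by the size of the difference among established symbols, the leading genes of each pattern (5 and 5 for appears, 3 and 3 for fades, 2 and 2 for neither), up to 3 members of each list, and genes that the study names. Alternatives changed the samples in the fit, the variance model, the replicate block, the filter on dim probe sets, the rows tested, the normalisation, the call rule, the probe set of a gene and the arrays. Promoter windows came from RefSeq (GRCm38.p6) and were matched by gene identifier for 15563 genes.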

Additional observations from a re-analysis of the deposited data

Results flagged for a closer look

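The VPA effect at 64 h differed from that at 4 h for 167 genes in the positive and 354 in the negative direction, by the test of the difference itself (limma, adjusted p under 0.05 and at least 2-fold), and the same test put the genes below on this list. Groups of 3 arrays are too small for a test of single outlying arrays.

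Among genes whose effect appeared, the difference was 3.31 for Serpinb2, 2.26 for Uchl1, 2.12 for Ptprn, 2.11 for Tubb2b, 2.09 for Serpini1, 2.07 for Sort1, 2.00 for Plat, 1.90 for Aplp1, 1.61 for Ntm, 1.44 for Gsta4, 1.40 for Thy1, 1.27 for Hhip, 1.26 for Hspa1a and 1.12 for Egr2. In the negative direction it was -3.47 for Igfbp3, -2.75 for Ccn5, -2.65 for Aard, -2.47 for Col14a1, -2.31 for Actg2, -2.04 for Myh11, -1.98 for Cfb, -1.98 for Vegfd, -1.97 for Ccne2, -1.95 for Dhrs3, -1.95 for Tmem204, -1.91 for Ccna2, -1.88 for Col3a1, -1.74 for Fzd8, -1.73 for Top2a and -1.72 for Emilin1. Smaller negative differences were -1.70 for Cyp7b1, -1.69 for Bub1, -1.65 for Itga8, -1.46 for Adamts5, -1.44 for Id3, -1.38 for Mmp23, -1.23 for Prelp, -1.21 for H2bc4 and -1.04 for Igfbp4.

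Where the effect faded, it was 2.55 for Ankrd1, 2.26 for Npr3, 2.12 for Ampd3, 1.62 for Cxcl5, 1.46 for Nqo1 and 1.10 for Trib3, and -2.29 for Pmp22, -2.29 for Samhd1, -2.27 for Chaf1b, -1.68 for H1f2, -1.46 for Fzd4, -1.44 for Ajuba and -1.39 for Fdps. Cxcl5, a chemokine, had 8.32, 7.94 and 7.45 in VPA4h against 10.44, 9.92 and 8.69 in Ctrl4h, a wide spread, and lost its call in 6 of 26 alternatives.

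Where the effect was called at neither time, it was 1.60 for Inhba, 1.54 for Ddah1, 1.43 for Bmp2, 1.25 for Ddit4, 1.20 for F3, 1.15 for Gadd45a, 1.07 for Mt2 and 1.05 for Itgb8. Negative values were -1.90 for Mcm4, -1.89 for Mcm6, -1.59 for Tbx20, -1.29 for Mylk, -1.19 for Idi1, -1.17 for Des, -1.17 for Fgfr2, -1.12 for Iigp1, -1.12 for Loxl3, -1.07 for Ccnd3, -1.06 for Hdac5, -1.03 for Cdkn2c and -1.02 for Ebp. Cdkn2c, an inhibitor of cyclin-dependent kinases, lost its call in 9 of 26 alternatives.

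Of 12147 probe sets without a gene symbol, which the comparisons leave out, 105 were called for the difference (0.864%), 50 more positive and 55 more negative.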

How the results depend on the processing

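Of the genes named by the rule, 0 changed the sign of their difference in any alternative run. Most had been chosen for a large difference, which makes a change of sign unlikely. The calls of Cdkn2c, Igfbp4, Egr2, Cxcl5, Ebp, Mt2, Itgb8, Iigp1, Hdac5 and Trib3 were lost in 2 to 9 of 26 alternatives, and those of Ccnd3, H2bc4, Hhip, Hspa1a and Nqo1 in 1. With a fold limit of 1.5 there were 819 more positive and 1107 more negative genes, and the patterns held 710 (appears), 647 (fades), 20 (grows), 17 (weakens), 27 (flips) and 505 (neither). Tested against a difference of 0.5 with treat, 2 genes flipped and 96 were called at neither time. Leaving out 1 array at a time gave 146 to 194 more positive and 341 to 376 more negative genes, 214 to 250 that appeared, 93 to 121 that faded, 180 to 212 called at neither time, 1 to 2 that grew and 0 to 1 that flipped. Centring on housekeeping genes gave 237 and 267, and on the array median 141 and 396. The cell cycle lists stayed negative there, with 10 and 11 called after housekeeping centring. With the repeat number of the titles as a replicate block, 167 genes were more positive and 356 more negative, of which 165 and 354 were called without the block. Arrays of the same number had correlated deviations from their group means of -0.01 to 0.28, over 0.1 in 12 of 18 pairs and highest for the own number in 16 of 18, which is a hint from the data, not from the design, that the numbers mark a shared set. A figure legend of the study numbers the separate HSC isolations of each group. It does not say whether a number stands for the same isolation in different groups. Because not every pair exceeded 0.1, a limit set for this check, the block was kept as an alternative. With 3 arrays a group, the simulated recovery of 1.5-fold differences was 34%.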

Other observations

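The lists not yet described had between 0 and 4 called members, and among all tested probe sets 0.893% were called as more positive and 1.70% as more negative. Of 21 genes of CDK inhibitors, D cyclins and p53 targets, Gadd45a, a stress-induced growth arrest protein, was more positive (1.15), and Ccnd3, cyclin D3 (-1.07), Cdkn2c (-1.03) and Gadd45g (-1.01), the last named to complete the list, were more negative. After housekeeping centring 0 of these 3 negative calls were left. Of 22 complement and coagulation genes, Plat and F3, tissue factor (1.20), were more positive and Cfb, complement factor B (-1.98), more negative. Of 18 histone deacetylases and corepressors, the enzymes VPA acts on among them, 1 was called, Hdac5 (-1.06), which lost its call after housekeeping centring and without repeat 2 of VPA4h. On 24 integrin and focal adhesion genes Itga8 was more negative and Itgb8, an integrin chain that binds latent TGF-beta, more positive (1.05). Of 26 genes of PDGF, VEGF and FGF signalling, Vegfd and the receptor Fgfr2 (-1.17) were more negative. Of 18 metalloproteinases and inhibitors, Adamts5 and Mmp23 (-1.38) were more negative, and of 17 small leucine-rich proteoglycans and elastic fibre genes Emilin1 and Prelp. Of 27 chemokine and NF-kB genes 1 was called (Cxcl5), of 29 immediate early genes 1 (Egr2, a transcription factor, 1.12), of 19 interferon genes 1 (Iigp1, an interferon-induced GTPase, -1.12), and of 14 stellate cell markers 1 (Des). For fatty acid oxidation (18), the circadian clock (16) and housekeeping genes (12) 0 were called by limma, with median differences of -0.19, -0.08 and -0.05. In these lists 6, 6 and 1 genes had an unadjusted p under 0.05 (limma), for which no share of all genes is given. Cpt1a, of the first list, lay at the limit (-0.99, adjusted p = 4.66e-05) and was called in 7 of 26 alternatives. Gusb, among the housekeeping genes used for centring, had -0.95 (adjusted p = 3.74e-05). Its effect of -1.06 at 64 h was called.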
